A study of Mus musculus with 2 samples.

Results

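Serine and one-carbon metabolism was followed through 10 enzyme genes: Phgdh, Psat1 and Psph, which make serine, and Shmt1, Shmt2, Mthfd1, Mthfd1l, Mthfd2, Mthfd2l and Aldh1l2, which carry single carbon units on folate. They were chosen by gene name, and all 10 were found among the 49492 genes of the table, with 409 to 2029 reads each in ctrl and 429 to 1713 in M2. The ctrl library came from wild-type (WT) mammary basal cells, sorted as lin-CD24+CD29hi cells from the glands of adult females of 8 to 10 weeks and grown in a 3D matrix gel with EGF and ITS, without further treatment. The M2 library came from the same kind of WT cells grown beside bone marrow-derived macrophages that Il-4 and Il-13 had turned into an M2-like state. A culture time of 11 to 14 days was recorded for both libraries. The macrophages sat in a trans-well insert and were replaced regularly, and how many mice were pooled for a library was not given in the sources used here.

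With 1 library per group, the variation from one culture to the next is unknown. Every interval and p-value here covers counting error only, and each test compares 2 libraries and not the conditions. The libraries held 26912610 reads in ctrl and 29413844 in M2. Both carried the basal keratin genes Krt14 (81991 and 68968 reads in ctrl and M2) and Krt5 (56383 and 83619 reads). Of 10 macrophage markers, Adgre1, Tyrobp, Fcer1g and Ptprc had 0 reads in both libraries. The list summed to 10.01 CPM (reads scaled to the effective size of each library) in ctrl and 10.2 in M2. In ctrl 7 of these markers were at or under 3 reads, and in M2 6 were. Most reads of the list were of Cd68 (170 in ctrl and 165 in M2) and Csf1r (94 and 92). Of the list 1 gene was called higher by the rule given below, Cd163, with 2 reads in ctrl and 30 in M2. The 8 basal markers summed to 7780 CPM in ctrl and 7709 in M2, with 1 called lower, Oxtr (8324 and 1920 reads). Of 8 luminal markers 5 were called lower (Elf5, Kit, Foxa1, Esr1 and Prlr), and the list summed to 3156 and 2420 CPM. By the sign of the log2 fold difference 7 were lower in M2, and only Krt8 (29888 and 36348 reads) was higher. Among those not called, Krt18 (14001 and 14225 reads) had a log2 fold difference of -0.05 and Krt19 (14538 and 8899 reads) one of -0.78. The 7 fibroblast markers summed to 664 and 150 CPM, with 1 called higher (Dcn) and 3 lower (Col1a2, Col3a1 and Col6a3). Col6a3 alone went from 343 CPM in ctrl to 18.1 in M2. By the sign of the log2 fold difference, 5 fibroblast markers were lower in M2 and 2 were higher, Pdgfra (607 and 822 reads) and Dcn (51 and 157 reads). The 4 endothelial markers summed to 2.08 and 2.81 CPM, with 1 called higher (Pecam1) and 2 lower (Cdh5 and Kdr). The 4 adipocyte markers summed to 9.57 and 0.555 CPM, with 2 called lower. Nearly all adipocyte marker reads were of Lep (198 in ctrl and 6 in M2) and Fabp4 (62 and 10), while Adipoq had 2 and 0 and Plin1 1 and 0. The part of these markers in the differences below was not tested, and in bulk RNA fewer cells of a type and less RNA per cell cannot be told apart.

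As background, cells take an intermediate of glycolysis and turn it into serine by the steps of Phgdh, Psat1 and Psph. Serine then gives a carbon unit to tetrahydrofolate and becomes glycine. This transfer and the reactions that follow exist in parallel in the cytosol (Shmt1, Mthfd1) and in mitochondria (Shmt2, Mthfd2, Mthfd2l, Mthfd1l), where formate is released and passes to the cytosol for the synthesis of purines and thymidylate. The pathway is known for its use by dividing cells. Phgdh is known for gene amplification in a part of human breast cancers, and Mthfd2 for low levels in most adult tissues and high levels in embryonic and tumour cells.

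The 10 genes did not move as a block. None of them was called. A call needed both an adjusted p under 0.05 in the exact binomial test over 19233 genes and at least a 2-fold difference. The members that passed the adjusted p and missed only the fold threshold are given below, beside the share over all genes. Over all genes tested, 8.16% were called higher and 6.55% lower in M2. The nearest to the threshold were Mthfd1l, with more reads in M2 (log2 fold difference 0.94, 95% counting interval 0.80 to 1.09), and Shmt1, with fewer (-0.95, -1.12 to -0.78). At a 1.5-fold threshold, 1 member was higher, Mthfd1l, and 1 was lower, Shmt1. The background at that threshold was 12.8% higher and 11.1% lower, so the share of members past it was near that of all genes tested. The median over the 10 members was 0.20, against -0.0032 over all genes tested.

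By counting error alone, without a fold threshold, 5 members had more reads in M2 (Phgdh, Psat1, Psph, Shmt2 and Mthfd1l), 3 had fewer (Shmt1, Mthfd1 and Mthfd2l) and 2 could not be separated from no difference (Mthfd2 and Aldh1l2). Over all genes tested 27.0% were higher and 26.1% lower by this rule. Because deeply covered genes pass it more easily, it was also counted over the genes with at least 1 CPM in both libraries. Of those, 30.5% were higher and 29.9% lower. The members lay well above 1 CPM, from 14.9 for Psph to 73.9 for Mthfd1 in ctrl, so this background did not match their depth.

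**Figure D1:**
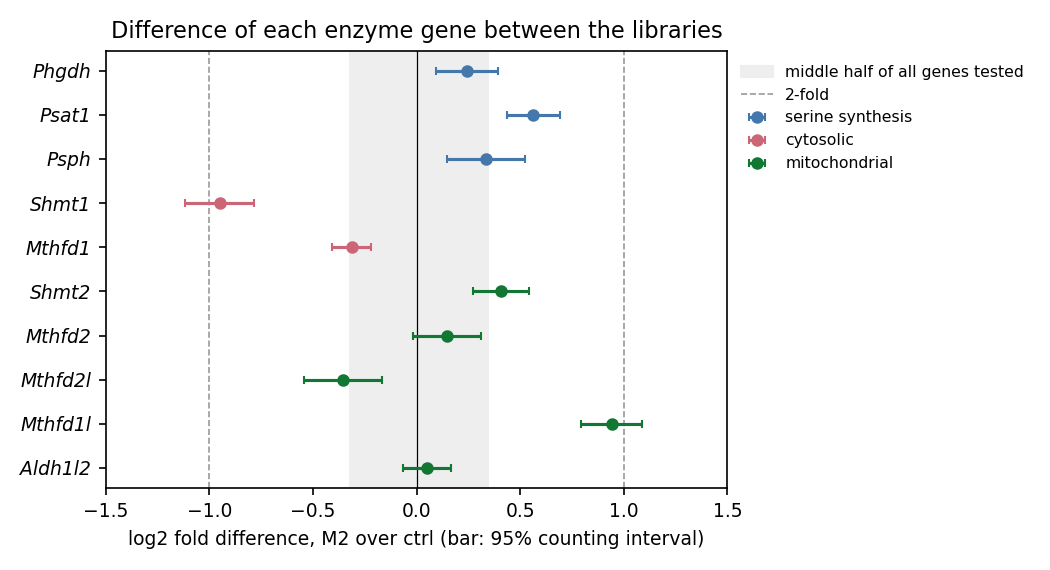
Log2 fold difference between M2 and ctrl (horizontal axis) for each of the 10 enzyme genes (vertical axis), coloured by role, with 1 library per group. Bars are 95% counting intervals and dashed lines mark a 2-fold difference. The grey band runs from the lower to the upper quartile of all genes tested, from -0.32 to 0.35. Mthfd1l at 0.94, Psat1 at 0.56 and Shmt2 at 0.41 lie above the band, and Shmt1 at -0.95 and Mthfd2l at -0.35 below it.

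The first enzymes make serine. Phgdh (GRCm38 chromosome 3, 98313170 to 98339990), which oxidises the glycolytic intermediate, counted 652 reads in ctrl against 810 in M2, and its log2 fold difference was 0.24 (95% counting interval 0.09 to 0.39, adjusted p = 0.00341 by the exact binomial test). Psat1 (chromosome 19, 15904678 to 15947337), the transaminase that follows, counted 797 and 1236 reads and differed by 0.56 (0.43 to 0.69, adjusted p = 2.7e-17 by the same exact test). Psph (chromosome 5, 129765558 to 129787449), the phosphatase that releases serine, counted 409 and 541 reads and differed by 0.33 (0.15 to 0.52, adjusted p = 0.00106 by the same exact test). Each had more reads in M2, and Psat1 had the largest difference of these genes. Of the genes tested, 17.1% had a higher log2 fold difference than Psat1.

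Summed over the 3 genes, the serine synthesis enzymes had 1858 reads in ctrl and 2587 in M2, which is 67.6 and 89.8 CPM. The sum was higher in M2 by 0.41 on the log2 scale (95% interval 0.32 to 0.50). The size of this difference leaned on Psat1, since it was 0.28 without that gene, against 0.49 without Phgdh and 0.43 without Psph. The values of Psph are less certain, because its exons share 452 bases, 10.4% of their length, with Cct6a on the other strand, and whether reads were counted by strand is not given in the sources used here. Cct6a, a subunit of the cytosolic chaperonin, had 5875 and 7307 reads.

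Serine hydroxymethyltransferase, the enzyme that moves the carbon unit from serine to tetrahydrofolate, has a cytosolic form and a mitochondrial form, and these went opposite ways. Shmt1 (chromosome 11, 60788104 to 60811718), the cytosolic form, counted 839 reads in ctrl against 456 in M2, a level 1.93-fold lower in M2 (adjusted p = 7.09e-30, exact binomial test). Of the genes tested, 8.35% had a lower log2 fold difference. Shmt2 (chromosome 10, 127517123 to 127522444), the mitochondrial form, counted 756 and 1052 reads and differed by 0.41 (0.27 to 0.54, adjusted p = 1.25e-08 by the exact binomial test). In ctrl the reads of Shmt2 were 0.901 times those of Shmt1, and in M2 they were 2.31 times those of Shmt1. The ratio thus changed by 1.36 on the log2 scale (1.14 to 1.57, adjusted p = 1.44e-36 over the 3 paralog ratios by Fisher's exact test, two-sided). A ratio within a library does not depend on how the libraries were scaled. Shmt1 shares 184 exon bases with Smcr8, and Shmt2 shares 30 exon bases with Ndufa4l2, both on the other strand. Smcr8 counted 1098 and 943 reads and Ndufa4l2 counted 5 in ctrl against 1007 in M2, and their part in the values of Shmt1 and Shmt2 was not tested.

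Paralogs of this kind are similar in sequence, so the longest run of identical bases between their transcripts was looked up. Reads of one gene could be counted for the other where the sequences match or nearly match. An exact run does not measure how many reads were so counted, which was not tested. In each pair below, taken from GENCODE M21 transcripts on GRCm38 and written 5′ to 3′ on the strand of the gene, capitals mark the shared run and lower case the coding bases beside it. For Shmt1 and Shmt2 the run was 19 bases, in exon 8 of both genes, at chr11:60794917-60794935 (minus strand) and chr10:127518896-127518914 (minus strand).
Shmt1: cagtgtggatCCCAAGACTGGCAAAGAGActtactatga
Shmt2: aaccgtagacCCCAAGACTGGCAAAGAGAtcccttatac
For Mthfd2 and Mthfd2l it was 20 bases, in exon 8 of both, at chr6:83306740-83306759 (minus strand) and chr5:91020202-91020221 (plus strand).
Mthfd2: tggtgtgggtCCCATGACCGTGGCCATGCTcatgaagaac
Mthfd2l: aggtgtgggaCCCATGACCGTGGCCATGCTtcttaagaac
For Mthfd1 and Mthfd1l it was 20 bases across the junction of exon 26 with exon 27, between the ends chr12:76315096-76317620 and chr10:4106524-4148022 (both plus strand).
Mthfd1: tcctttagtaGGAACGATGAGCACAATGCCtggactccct
Mthfd1l: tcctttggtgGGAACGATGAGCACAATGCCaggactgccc
For Aldh1l2 and its cytosolic counterpart Aldh1l1 it was 22 bases, in exon 3 of both, at chr10:83522805-83522826 (minus strand) and chr6:90559352-90559373 (plus strand).
Aldh1l1: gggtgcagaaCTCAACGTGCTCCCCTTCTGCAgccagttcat
Aldh1l2: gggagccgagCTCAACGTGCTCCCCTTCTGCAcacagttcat
None of these pairs shared a run longer than 22 bases, and the read length is not given in the sources used here.

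After Shmt, the folate-bound carbon is oxidised or released. In the cytosol a single protein, Mthfd1 (chromosome 12, 76255232 to 76319820), carries out these steps. It had the most reads of all members, 2029 in ctrl and 1713 in M2, and its log2 fold difference was -0.31 (-0.41 to -0.22, adjusted p = 1.64e-10 by the exact binomial test). In mitochondria separate proteins share the work. Mthfd1l (chromosome 10, 3973118 to 4167081), which releases formate, counted 568 and 1145 reads, a 1.92-fold higher level in M2 (adjusted p = 4.67e-38, same exact test). Of the genes tested, 10.1% had a higher log2 fold difference.

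Mthfd1l and Mthfd1 therefore moved apart. Their read ratio was 0.280 in ctrl and 0.668 in M2, which changes the log2 ratio by 1.26 (1.08 to 1.43, adjusted p = 1.48e-47 by Fisher's exact test). Mthfd1 stood above Mthfd1l in both libraries, since per base of gene length the ratio was 0.210 in ctrl and 0.501 in M2.

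Mthfd2 (chromosome 6, 83305691 to 83325908), the mitochondrial dehydrogenase and cyclohydrolase, counted 561 reads in ctrl against 652 in M2. Its log2 fold difference of 0.15 had an interval of -0.02 to 0.31 (adjusted p = 0.131, exact binomial test), so a difference was not detectable at this depth. Mthfd2l (chromosome 5, 90931117 to 91021368), a paralog with the same activities, counted 523 and 429 reads and differed by -0.35 (-0.54 to -0.17, adjusted p = 0.000464 by the same exact test). The Mthfd2 to Mthfd2l ratio was 1.07 in ctrl and 1.52 in M2, so the log2 ratio changed by 0.50 (0.25 to 0.75, adjusted p = 6.73e-05 by Fisher's exact test). Of these paralogs Mthfd2l was the lower one in both libraries, and per base of length Mthfd2 stood 2.04 times above it in ctrl and 2.90 times in M2.

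Aldh1l2 (chromosome 10, 83487450 to 83534140), which oxidises the mitochondrial formyl group to CO2 and yields NADPH, counted 1215 reads in ctrl against 1320 in M2. Its difference of 0.05 (-0.06 to 0.16, adjusted p = 0.490 by the exact binomial test) was within counting error, and its sign flipped when libraries were scaled by their total reads. Its exons share 1056 bases, 14.1% of their length, with D10Wsu102e on the other strand, which had 1670 and 1660 reads. The cytosolic counterpart Aldh1l1 was the gene of the folate list with the largest difference. It counted 140 reads in ctrl against 796 in M2 and was called higher, with a difference of 2.43 (2.18 to 2.71, adjusted p = 5.38e-104 by the exact binomial test). Among the cytosolic genes of this pathway Aldh1l1 thus had more reads in M2, while Shmt1 and Mthfd1 had fewer. The ratio of Aldh1l2 to Aldh1l1 was not tested.

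**Figure D2:**
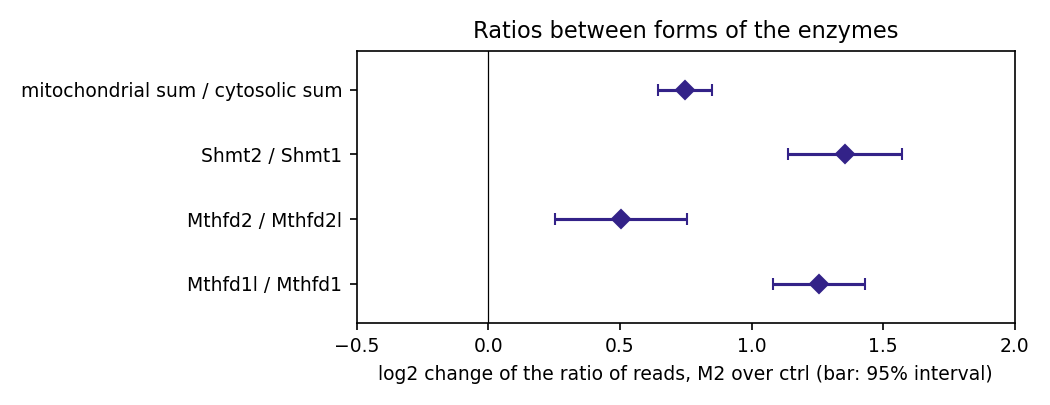
Log2 change from ctrl to M2 (horizontal axis) of the ratio of reads for 4 pairs of genes or sums (vertical axis), with 95% intervals of the odds ratio as bars and 1 library per group. All 4 ratios lie to the right of 0, from 0.50 for Mthfd2 over Mthfd2l to 1.36 for Shmt2 over Shmt1.

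To compare the compartments, the 5 mitochondrial genes and the 2 cytosolic genes among the members were summed, which counts Aldh1l2 on the mitochondrial side but leaves out its cytosolic counterpart Aldh1l1, no member. The mitochondrial genes (Shmt2, Mthfd2, Mthfd2l, Mthfd1l and Aldh1l2) summed to 3623 reads in ctrl against 4598 in M2, a log2 difference of 0.27 (0.21 to 0.34). The cytosolic genes (Shmt1 and Mthfd1) summed to 2868 and 2169 reads, a difference of -0.47 (-0.55 to -0.39). The ratio of the sums was 1.26 in ctrl and 2.12 in M2, so its log2 value changed by 0.75 (0.64 to 0.85, p = 5.62e-47 by Fisher's exact test). Both cytosolic genes were lower in M2, whereas the mitochondrial genes were mixed, with Shmt2 and Mthfd1l higher, Mthfd2l lower, and Mthfd2 and Aldh1l2 within counting error. With Aldh1l1 added to the cytosolic side, an alternative chosen after seeing the data, the cytosolic sum was 3008 and 2965 reads, a difference of -0.09 (-0.16 to -0.02), and the change of the ratio was 0.36 (0.27 to 0.46). The size of the change thus depended on whether Aldh1l1 was counted. Leaving out single genes gave 0.58 without Mthfd1l, 0.59 without Shmt1, 0.77 without Mthfd2, 0.71 without Shmt2 and 0.85 without Aldh1l2. Without Mthfd1, where Shmt1 alone stands for the cytosol, the change was 1.22.

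Per base of gene length, as CPM divided by the exon length in kilobases (RPKM), the members were ordered by level. In ctrl, Mthfd1 was highest at 22.2 RPKM (95% Poisson interval 21.3 to 23.2), followed by Shmt2 at 11.9 and Phgdh at 9.55. Then came Shmt1 at 7.87, Psat1 at 6.82, Aldh1l2 at 5.90, Mthfd2 at 5.86, Mthfd1l at 4.66, Psph at 3.44 and Mthfd2l at 2.87 RPKM. Of the 9 pairs of neighbours in this order, the intervals of 2 overlapped (Aldh1l2 with Mthfd2, and Psph with Mthfd2l), so that their order is not fixed by the counts.

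In M2 the top of the order was the same, with Mthfd1 at 17.9 RPKM, Shmt2 at 15.8 and Phgdh at 11.3. Below them followed Psat1 at 10.1, Mthfd1l at 8.96, Mthfd2 at 6.49, Aldh1l2 at 6.10, Psph at 4.34, Shmt1 at 4.07 and Mthfd2l at 2.24 RPKM. Here the intervals overlapped in 3 of 9 neighbouring pairs (Phgdh with Psat1, Mthfd2 with Aldh1l2, and Psph with Shmt1). Shmt1 went from the fourth place to the ninth and Mthfd1l from the eighth to the fifth, and 6 of the 10 genes held another place than in ctrl. Mthfd1 and Shmt2, at the top, did not overlap in either library.

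**Figure D3:**
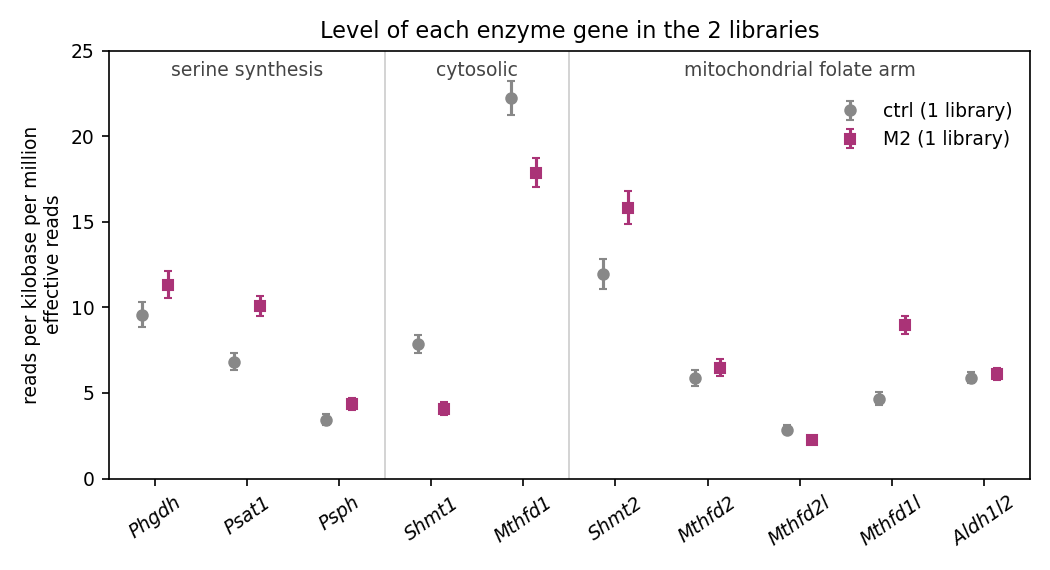
Level of each of the 10 enzyme genes in RPKM (vertical axis) for the ctrl library (grey circles) and the M2 library (purple squares), with exact 95% Poisson intervals of the counts as bars. Mthfd1 is highest in both libraries, at 22.2 and 17.9, while Shmt1 goes from 7.87 to 4.07 and Mthfd1l from 4.66 to 8.96.

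Other genes that handle serine, folate and the carbon units were taken as lists. Of 13 genes of serine and glycine handling, 11 had enough reads to be tested, none was called, and the median log2 fold difference was 0.09. By counting error without a fold threshold, 4 of them were higher and 1 lower, where 27.0% and 26.1% of all genes tested were. Dld, the dehydrogenase subunit of the glycine cleavage system, differed by 0.20 (5466 reads in ctrl and 6607 in M2), and Sfxn3, a relative of the mitochondrial serine carrier Sfxn1, by -0.32 (4110 and 3456 reads). Sfxn1 itself, named after its value was seen, differed by 0.37. Gldc, the decarboxylase of glycine cleavage and also named after its value was seen, had 1 and 2 reads, which is at or under the 3 reads that a count of 0 allows.

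Of 14 genes of folate uptake and of the cofactor cycle, 13 were tested, and their median was -0.12. By counting error without a fold threshold, 5 were higher and 5 lower, where 27.0% and 26.1% of all genes tested were. Aldh1l1 was called higher, and Folr2, a folate receptor with 32 and 15 reads, was called lower at -1.11 (95% interval -2.15 to -0.24). The call of Folr2 was lost with a pseudocount of 5 (log2 fold difference -0.96). The genes of this list with the most reads were Tyms, thymidylate synthase, which differed by 0.59 (760 and 1199 reads), and Fpgs, which adds glutamates to folate, which differed by -0.29 (904 and 775 reads).

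Of 17 genes of the methionine cycle and transsulfuration, 15 were tested, with a median of -0.17. By counting error without a fold threshold, 9 of them were lower and 3 higher, where 26.1% and 27.0% of all genes tested were. Mat1a, the liver form of the enzyme that makes S-adenosylmethionine, was called higher on few reads, 6 in ctrl and 35 in M2 (log2 fold difference 2.29, interval 1.21 to 4.02). Bhmt, which remethylates homocysteine with betaine, counted 66 reads in ctrl against 0 in M2 and was called lower. With 3 reads set for the 0 in M2 and the ctrl reads taken as exact, Bhmt was 23.1-fold lower (log2 fold difference -4.53). Its counting interval had no lower end and reached up to -4.19, a smaller difference than that value. Mat2a, the form of the S-adenosylmethionine enzyme found outside the liver, had 4631 and 4456 reads and differed by -0.12, and Ahcyl1 had 4670 and 4944 reads and differed by 0.01.

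Of 12 genes of purine synthesis, a pathway in which Gart and Atic use formyl groups from folate, all were tested, none was called, and the median was -0.11. Paics had 6601 and 6674 reads and differed by -0.05 (adjusted p = 0.0612, exact binomial test), and Adss had 4416 and 5801 reads and differed by 0.32. By counting error alone 3 of these genes were higher and 6 lower, where 27.0% and 26.1% of all genes tested were. Prps2, named after its value was seen, had the lowest log2 fold difference at -0.84.

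Atf4 is a transcription factor known to raise Phgdh, Psat1, Shmt2, Mthfd2 and Aldh1l2 when amino acids are short. Of 19 genes of an Atf4 list that holds none of the members, 1 was called higher and 1 lower, and the median was 0.12. By counting error without a fold threshold, 8 were higher and 5 lower, where 27.0% and 26.1% of all genes tested were. Slc7a11, the cystine carrier, counted 131 reads in ctrl against 396 in M2 (log2 fold difference 1.52). Stc2, a secreted glycoprotein, had 9668 and 2572 reads (-1.98). Nupr1 and Slc3a2, with the most reads besides, differed by -0.19 and -0.22. Atf4 itself differed by 0.55 (5153 and 7924 reads) and Asns, which makes asparagine, by -0.32 (1117 and 939 reads); both were named after their values were seen.

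Of the 7 lists of other genes, that of mitosis had the median farthest from 0. All 10 mitosis genes had more reads in M2, 8 were called higher (Mki67, Top2a, Cdk1, Ccnb1, Plk1, Aurka, Bub1 and Cdc20), and the median was 1.26. All 10 S phase genes also had more reads in M2, none was called, and their median was 0.40, with Rrm1 at 0.37 and Mcm7 at 0.35. The mitosis list summed to 287 CPM in ctrl and 674 in M2. The part of cell division in the differences of the enzyme genes was not tested.

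**Figure D4:**
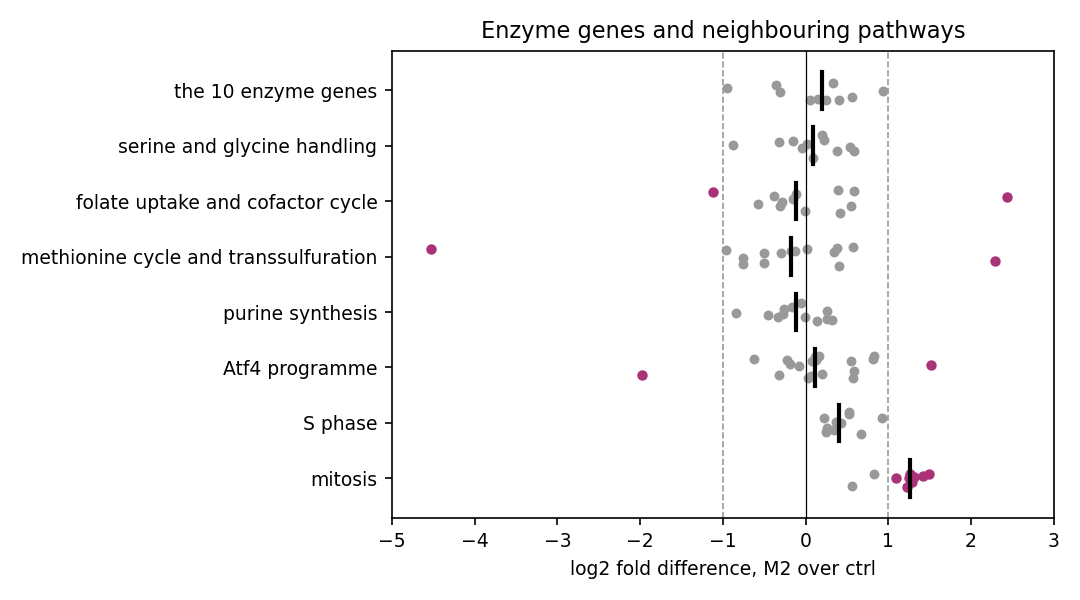
Log2 fold difference between M2 and ctrl (horizontal axis) for the tested genes of each list (vertical axis), 1 point per gene with random vertical spread; purple points were called, the black bar is the median and dashed lines mark 2-fold. Bhmt is drawn at -4.53, the value with 3 reads set for its 0 in M2. The 10 enzyme genes have a median of 0.20 and the mitosis genes one of 1.26.

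The promoters of the members in RefSeq (GRCm38.p6, windows of 300 bases across the start) were searched on both strands for TGATGNAAT and TGATGCAA, forms of the element that Atf4 binds with its partners and which overlap each other, and for CACGTG, the E-box of Myc. There were 10 promoters for 9 of the members, and Aldh1l2 had no entry. None of the 10 held any of these motifs, where 0.965%, 0.895% and 7.15% of all 32851 promoters did. This says only that these letters are not in these windows.

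The reads alone make small differences pass, so the test was repeated with an assumed variation between cultures, in the exactTest of edgeR. Phgdh, Psph, Shmt2, Mthfd1 and Mthfd2l had passed by counting error. With the lowest variation tried, 0.1, none of them kept an adjusted p under 0.05 in the exactTest. With a biological coefficient of variation of 0.1, Mthfd1l, Shmt1 and Psat1 had adjusted p-values of 0.000184, 0.000219 and 0.0451 in that exact test. With 0.2 the lowest adjusted p over the 10 members was 0.195 in the exactTest, and with 0.4 it was 1. Shmt1 was also called with library totals as the scaling, where its log2 fold difference was -1.01, and with totals that leave out the mitochondrial genes, where it was -1.02.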

How the data were processed

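The authors deposited a table of raw read counts per gene for 1 ctrl and 1 M2 library, with gene length and exon positions. Per the labels the build was GRCm38 (mm10) and a SMARTER mRNA-Seq kit was used, whereas for RNA extraction the labels name a Qiagen column and the methods RNAiso Plus. The aligner, counter, use of strand and filters are not given in the sources used here. Of the 10 members, 9 had the same start and end in GENCODE M21. Groups came from the sample titles.

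Genes with at least 10 reads in sum were tested (19233). TMM scaling was done with edgeR 4.0.16 (R 4.3.3; factors 1.02 for ctrl and 0.980 for M2). Differences are log2 of reads plus a pseudocount of 1 over effective library size, M2 over ctrl, with 95% Clopper-Pearson intervals. P-values are from a two-sided exact binomial test (scipy 1.17.1), Benjamini-Hochberg adjusted over all genes tested; neither edgeR's quasi-likelihood test nor DESeq2 can be fitted without replicates. Scripts were tested on simulated Poisson counts without variation between cultures, which checks the code and not how well the tests suit these data. RPKM used the listed merged exon length. Other genes were given values where called or among the 2 with the most reads of a list. Any further gene given a value from the 7 lists of other genes is marked in the text. Of the marker lists, some further genes were named that were not called. Overlapping genes were named for their overlap. The members and lists were chosen with earlier results of these data known. No molecular identifiers are stated, so copies of a molecule made by amplification may have been counted as separate reads. The intervals and tests treat reads as independent and would then be too narrow even for counting error.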

Additional observations from a re-analysis of the deposited data

How the results depend on the processing

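The members' values were recomputed under 8 other scalings, filters and pseudocounts. In sign, 9 of the 10 members held under all of them, and Aldh1l2 ran from -0.02 to 0.05. The number of members called lower was 1 (Shmt1) with library totals and with totals that leave out mitochondrial genes, against 0; at a 1.5-fold threshold 1 member was called higher and 1 lower, and at 4-fold none. The median of the members ran from 0.13 to 0.20. The serine synthesis sum and the mitochondrial to cytosolic ratio stayed positive in each alternative that was tested. Their p stayed under 0.05, by the exact binomial test for the sum and Fisher's exact test for the ratio. These tests cover counting error only, and no assumed variation between cultures was applied to the sum or the ratio. Filters do not apply to them. The alternatives without Mthfd1l, without Shmt1 and with Aldh1l1 (ratio change 0.36 against 0.75) were added after seeing the data.

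Counts of called genes in the lists moved as follows. Folate genes called went from 2 to 1 with at least 1 CPM in both libraries, with a pseudocount of 5, with an assumed coefficient of variation of 0.1 or 0.2 and at 4-fold, to 0 with 0.4, and to 3 at 1.5-fold. Methionine cycle genes went from 2 to 0 with at least 1 CPM, because Mat1a and Bhmt can then no longer be tested, to 1 with a variation of 0.4, to 5 at 1.5-fold, and to 3 with library totals, with or without mitochondrial genes. Atf4 genes went from 2 to 0 with 0.4 and at 4-fold, and to 6 at 1.5-fold. Mitosis genes went from 8 to 6 with 0.2, to 0 with 0.4 and at 4-fold, and to 9 at 1.5-fold. At 1.5-fold there was 1 gene of serine and glycine handling, 1 of purine synthesis and 2 of S phase, against 0 each.

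No paired analysis was possible because a group is a single library, and leaving out a replicate was not possible for the same reason. Depth limits Folr2, Mat1a and Gldc. Of the values of the members and of the genes called or with the most reads of the 7 lists, under the alternatives in which each was tested, 431 stayed on the same side of the call, 29 lost it, 5 gained it, and no called value changed sign. Genes named after their values were seen were not recomputed.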
